A study of Homo sapiens with 18 samples.

Results

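The histone lysine methylase and demethylase genes described here are the protein-coding genes of the GRCh38 RefSeq table whose symbol is KMT, KDM, SETD or PRDM followed by a number and an optional letter. The rule gave 52 of 20037 genes on chromosomes 1 to 22, X and Y: 8 KMT, 9 SETD, 20 KDM and 15 PRDM genes. The rule uses gene symbols and no measured value, but it was chosen with earlier results of these data known. A peak was counted for a gene when it overlapped the gene body, or the 10 kb on either side of it, by at least 1 bp. Such a window can hold peaks that lie in or beside a neighbouring gene, so a count for a gene is not a count of peaks that belong to it alone.

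AML1-ETO occupancy was mapped by CUT&RUN, an assay in which nuclease tethered to an antibody releases the DNA next to the bound protein for sequencing. The cells were Kasumi-1, a human acute myeloid leukaemia line with the chromosome translocation that fuses RUNX1 (AML1) to RUNX1T1 (ETO), and in every group they carried a Flag-tagged AML1-ETO. Viable GFP-positive cells were sorted 72 hours after transduction, as control or with knockdown of the microRNA miR-130a, and 200000 cells were used per condition. Each condition was profiled with anti-ETO, anti-Flag and mouse IgG in 3 libraries each, which makes 18 libraries in 6 groups. The study asked whether AML1-ETO occupancy differed after miR-130a knockdown. All groups come from 1 cell line, and the labels do not say whether the 3 libraries of a group came from separate cultures.

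The deposited values are peak positions. One list was given for each of anti-ETO and anti-Flag in control and in knockdown, and 5 lists were derived from those 4: the peaks of both antibodies in control, the same in knockdown (called dual-antibody peaks here), and the shared, control-unique (C-Unique) and knockdown-unique (KD-Unique) peaks that follow from comparing these. A dual-antibody peak spans the joined ETO and Flag calls, and a shared peak spans the joined control and knockdown dual-antibody peaks. A base inside such a peak was therefore not always called in each list behind it. The single-antibody lists held 14264 control ETO, 22594 knockdown ETO, 23162 control Flag and 25961 knockdown Flag peaks. Peak heights, scores and values for single libraries are not part of these lists, so the depth behind a call is unknown, no spread between libraries can be given and no test over libraries was possible. IgG peaks were not used here. Positions give no expression level, so the cell line label was not checked by marker genes.

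Histone lysine methylation marks chromatin by position on the histone tail: methylated lysine 4 of histone H3 (H3K4) is found at active promoters and enhancers, H3K36 methylation along transcribed bodies, and H3K9, H3K27 and H4K20 methylation largely in repressed or compacted chromatin. SET-domain methylases write these marks, and flavin-dependent (KDM1) or Jumonji-type demethylases erase them. Mutations or fusions of several of these enzymes, KMT2A among them, are known in acute leukaemia. AML1-ETO keeps the DNA-binding Runt domain of RUNX1 and recruits corepressor complexes through ETO.

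Of the 52 genes, 37 had a control ETO peak, against 47.4% of all protein-coding genes, and 39 had a knockdown ETO peak, against 53.6%. A control Flag peak lay at 37 of them (50% of all genes) and a knockdown Flag peak at 37 (42.1%). Dual-antibody peaks were found at 37 in control, where 43.7% of all genes had one, and at 37 in knockdown, where 39.3% did. A shared peak lay at 36 of the 52, or 69.2%, against 35% of all genes. The share of these genes with a peak was above that of all genes in each of these lists, by the widest margin for the shared peaks.

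**Figure D1:**
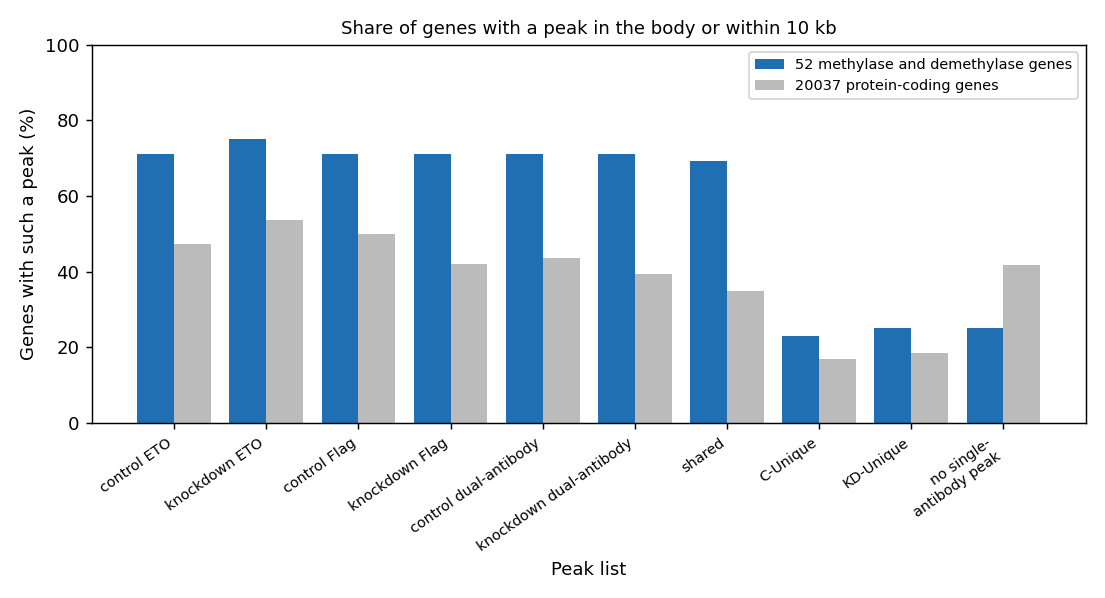
Percentage of genes (vertical axis) with at least 1 peak inside the gene or its 10 kb flanks, for each deposited list (horizontal axis), in the 52 methylase and demethylase genes (blue bars) and in all 20037 protein-coding genes (grey bars). The last pair of bars is the percentage with no peak in any single-antibody list, 25% of the 52 and 41.8% of all genes.

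The same genes were called by both antibodies and in both conditions: all 4 single-antibody lists had a peak at 37 of the 52 genes (37.2% of all genes), and knockdown ETO added KMT2A and KDM5C. No such list had a peak at another 13 (41.8% of all genes). None of the 52 had a dual-antibody peak in control but not in knockdown, where 7.64% of all genes did, and none had one in knockdown but not in control (3.25% of all genes). Taken over genes with a dual-antibody peak, 0 of 37 lacked one in knockdown, against 17.5% of all genes with a control peak, and 0 of 37 lacked one in control, against 8.28% of all genes with a knockdown peak. These counts of 0 were not kept by every way of counting: with peaks assigned to their nearest gene, 2 of the genes had a dual-antibody peak in control but not in knockdown, against 7.25% of all genes. With only the wider peaks of each list, those at or above its median width, 3 of the 52 had one in control alone and 3 in knockdown alone, against 4.11% and 3.77% of all genes, so the low share did not hold there.

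Gene length differed between the 2 sets, with a median of 61.0 kb for the 52 genes and 24.1 kb for all genes, and a longer gene has a longer window. Within each class of length the share of genes with a shared peak was higher for the methylase and demethylase genes. Under 20 kb it was 7 of 10 (70.0%) against 35.6% of all genes, from 20 to 60 kb 11 of 16 (68.8%) against 37.2%, from 60 to 120 kb 10 of 15 (66.7%) against 34.9%, and over 120 kb 8 of 11 (72.7%) against 28.2%. Expression was not measured in these files, and the part of expression or of gene length in these shares was not tested.

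**Figure D2:**
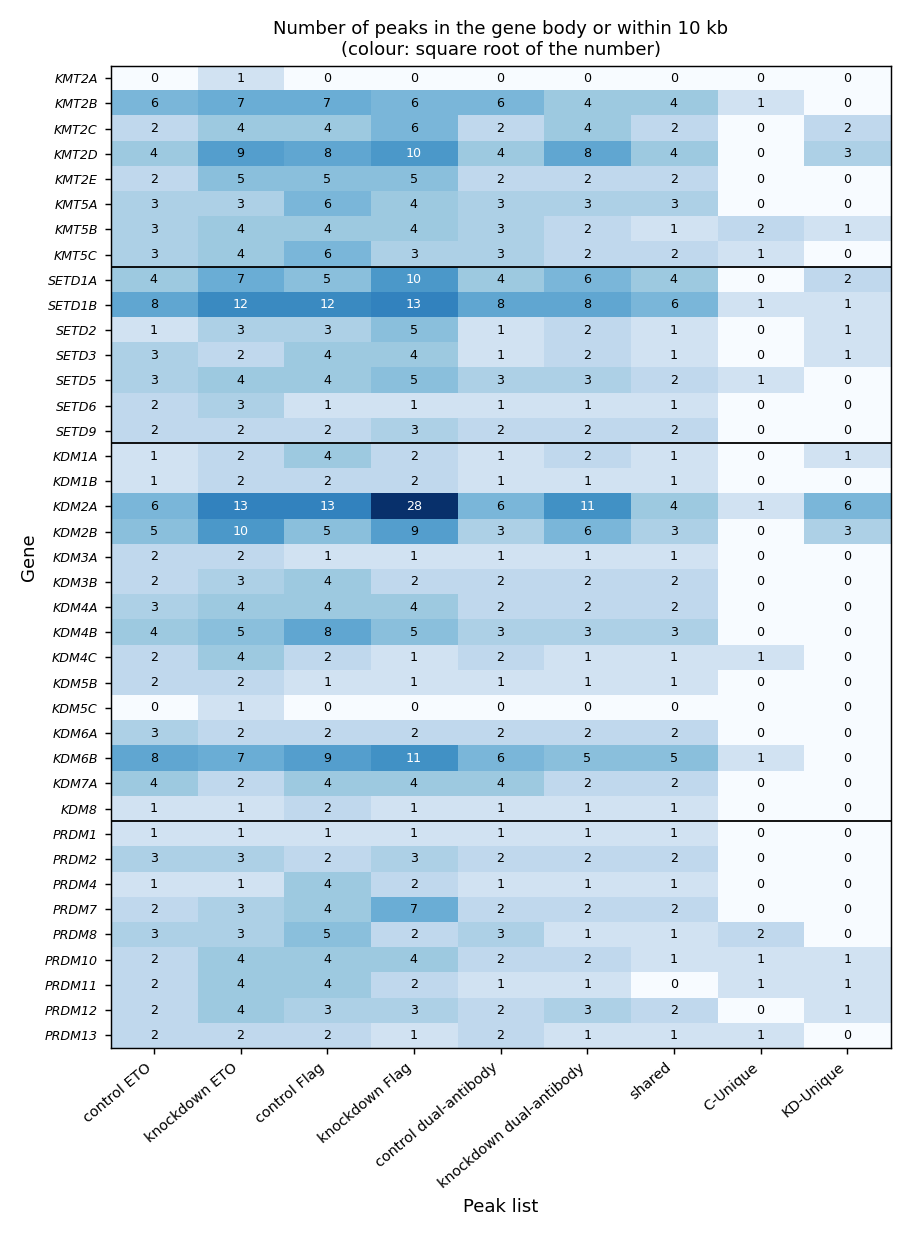
Peak count inside the gene or its 10 kb flanks for the 39 genes with a peak in any list (rows, by KMT, SETD, KDM and PRDM family) in each of the 9 deposited lists (columns); the number is printed and the colour follows its square root. KDM2A holds the highest count, 28 knockdown Flag peaks, and KMT2A and KDM5C have a knockdown ETO peak alone.

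The 9 genes grouped here as H3K4 methylases are KMT2A to KMT2E, SETD1A, SETD1B, SETD7 and PRDM9. Roles are labels for grouping, and no enzyme activity was measured. These 9 genes held 26 dual-antibody peaks in control and 32 in knockdown. Such peaks lay at 6 of the 9 in both conditions, against 43.7% of all genes in control and 39.3% in knockdown. With the single-antibody lists shortened to equal length the 9 genes had 23 and 25. In these lists KMT2D had 4 and 5, KMT2C 1 and 3, SETD1A 4 and 5, and KMT2B 5 and 3. In the deposited lists the ETO peaks of the 9 genes numbered 26 in control and 45 in knockdown, and their Flag peaks 41 and 50. SETD1B, a catalytic subunit of the complexes that trimethylate H3K4 at promoters, had 8 control ETO, 12 knockdown ETO, 12 control Flag and 13 knockdown Flag peaks. Its 8 dual-antibody peaks in control and 8 in knockdown were the highest control count among the 52 genes. Its widest shared peak, chr12:121792239-121795908 (3670 bp), covered the start site of the neighbour RHOF, another lay in the RHOF body, and 2 of its 6 shared peaks lay over the neighbour HPD. At SETD1B both unique lists had 1 peak, the KD-Unique chr12:121806324-121806924 and the C-Unique chr12:121810985-121812350. The C-Unique interval was also touched by a knockdown ETO call and a knockdown Flag call, which overlapped each other by 94 bp. An overlap of at least 100 bp between the antibodies gave back all 12247 control and all 13712 knockdown dual-antibody intervals, so this site was unique by the overlap rule and not by a missing call.

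SETD1A, the paralog of SETD1B, had 4 control ETO, 7 knockdown ETO, 5 control Flag and 10 knockdown Flag peaks, and 4 dual-antibody peaks in control and 6 in knockdown. The peak over its start site, chr16:30956998-30958278, was shared, and a KD-Unique peak followed 201 bp further into the gene at chr16:30958480-30959137 with no control call by either antibody. The other KD-Unique peak, chr16:30984847-30985316, lay past the end of SETD1A over the start site of HSD3B7, and 3 of the 4 shared peaks lay upstream in ORAI3. KMT2D and KMT2C, which monomethylate H3K4 at enhancers and are mutated in many cancers, both had more peaks in the knockdown lists. KMT2D had 4 control ETO and 9 knockdown ETO peaks, 8 control Flag and 10 knockdown Flag peaks, and 4 dual-antibody peaks in control against 8 in knockdown. Its KD-Unique peaks were chr12:49057192-49058282 inside the gene, chr12:49014512-49015361 in PRKAG1 beyond its end and chr12:49063889-49064334 upstream; the last of these had a control Flag call, and the others had no control call. Of its 4 shared peaks, chr12:49060354-49061667 covered its own start site, chr12:49017546-49019216 covered that of PRKAG1, and chr12:49069532-49069959 lay in RHEBL1. KMT2C had 2 control and 4 knockdown ETO peaks, 4 control and 6 knockdown Flag peaks, and 2 dual-antibody peaks in control against 4 in knockdown. The added peaks, chr7:152433837-152434398 and chr7:152434629-152435280, lay 1605 and 723 bp inside the gene from its start site, where control Flag had 1 call of 1432 bp across both and control ETO had none.

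KMT2B, a methylase of H3K4 at promoters, ran the other way by number, with 6 dual-antibody peaks in control and 4 in knockdown. The C-Unique peak chr19:35718360-35719204 began 357 bp after its start site and had a knockdown ETO call of 807 bp but no knockdown Flag call. Its ETO peaks numbered 6 and 7 and its Flag peaks 7 and 6. Just upstream, over the neighbour ZBTB32, lay the shared peak chr19:35715985-35717966, and the other 3 shared peaks lay downstream in IGFLR1, U2AF1L4 and LIN37. Dual-antibody peaks covered 4541 bp in control and 5589 bp in knockdown: at IGFLR1, where control had peaks of 1267 and 444 bp, knockdown ETO had 1 call of 2252 bp. KMT2E, a PHD-finger member of the family, had 2 shared peaks, the wider one 2773 bp over its start site, and none in either unique list. KMT2A, the gene fused to many partners in acute leukaemia, had a single peak in all 4 single-antibody lists together, a knockdown ETO call at chr11:118435590-118436212 that ended 280 bp before the start site. SETD7 and PRDM9, the methylase that sets meiotic recombination sites, had none.

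SETD2, the H3K36 trimethylase, had 1 control and 3 knockdown ETO peaks, 3 control and 5 knockdown Flag peaks, and 1 dual-antibody peak in control against 2 in knockdown. The shared peak chr3:47162270-47165181 (2912 bp) covered its start site, and the KD-Unique peak chr3:47017322-47017744 lay 146369 bp away near the end of the gene, within 10 kb of NBEAL2. Neither antibody had a control call at that interval.

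Among the H4K20 methylases the dual-antibody peaks numbered 9 in control and 7 in knockdown. They lay at 3 of 3 genes in both conditions (control 43.7% and knockdown 39.3% of all genes). With the single-antibody lists shortened to equal length they numbered 8 and 4. KMT5A, which places the first methyl group on H4K20, had 3 shared peaks and no unique one. KMT5B and KMT5C add further methyl groups. KMT5B had 3 control and 4 knockdown ETO peaks and 4 Flag peaks in each condition. Its dual-antibody peaks, 3 in control and 2 in knockdown, gave 1 shared, 2 C-Unique and 1 KD-Unique peak. The C-Unique peak chr11:68213604-68214142 covered its start site. At that site the control Flag call was 526 bp and the control ETO call 457 bp wide, the knockdown ETO call was 1302 bp wide, and no knockdown Flag call was made. The second C-Unique peak, chr11:68212379-68212780, also had a knockdown ETO call and no knockdown Flag call, while the KD-Unique peak chr11:68206114-68206551 had a control Flag call and no control ETO call. KMT5C had 3 control and 4 knockdown ETO peaks, 6 control and 3 knockdown Flag peaks, and 3 dual-antibody peaks in control against 2 in knockdown. Its C-Unique peak, chr19:55340990-55341610, lay 260 bp from the shared peak over its start site, and its other shared peak lay downstream in COX6B2. At KMT5C dual-antibody peaks covered 2578 bp of its window in control against 2633 bp in knockdown.

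The remaining SETD genes had 7 dual-antibody peaks in control and 8 in knockdown, at 4 of 5 genes (control 43.7% and knockdown 39.3% of all genes). SETD3, an actin histidine methylase, had 1 in control and 2 in knockdown, with 3 and 2 ETO peaks and 4 Flag peaks in each condition. Its shared peak chr14:99479253-99481957 (2705 bp) covered its own start site and that of its neighbour CCNK, and its KD-Unique peak chr14:99476689-99477314 had a control Flag call but no control ETO call. SETD5, a SET-domain protein linked to histone deacetylase complexes, had 3 control and 4 knockdown ETO peaks, 4 control and 5 knockdown Flag peaks and 3 dual-antibody peaks in each condition. Its C-Unique peak chr3:9410272-9410594 had a knockdown Flag call and no knockdown ETO call, which was seen at no other of the 14 C-Unique peaks. SETD6, known for methylating the NF-kB subunit RELA, had 1 shared peak, over its start site and within the neighbour NDRG4, and SETD9 had 2. SETD4 had none.

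The H3K4 demethylases were split. Of 6 genes, 3 had dual-antibody peaks in both conditions (control 43.7% and knockdown 39.3% of all genes), 3 peaks in control and 4 in knockdown. KDM1A (LSD1), the flavin-dependent demethylase of the CoREST complex, had 191 bp under 1 dual-antibody peak in control and 1888 bp under 2 in knockdown. Control ETO had 1 call there, of 191 bp, and the knockdown ETO call of 1354 bp covered the start site. Control Flag had 4 calls at KDM1A and knockdown Flag 2. The KD-Unique peak of KDM1A, chr1:23020744-23021277, had a control Flag call and no control ETO call. KDM1B and KDM5B, a Jumonji-type demethylase of trimethylated H3K4, had 1 shared peak each, and that of KDM5B, chr1:202810620-202811308, lay upstream of it in LOC124904583. KDM5C had a single call, knockdown ETO at chrX:53225063-53225674 over its start site, and KDM5A and KDM5D had none.

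The genes grouped here as H3K36 demethylases are KDM2A, KDM2B and KDM8. Each gene was counted in 1 role, so KDM4A and KDM4B, which act on both H3K9 and H3K36, were counted with the H3K9 demethylases. The 3 genes had 10 dual-antibody peaks in control and 18 in knockdown in the deposited lists. With the single-antibody lists shortened to equal length they had 8 and 10, KDM2A 5 and 6, and KDM2B 3 and 4. KDM2A, which binds unmethylated CpG islands through a CXXC zinc finger, had 6 control ETO and 13 knockdown ETO peaks, 13 control Flag and 28 knockdown Flag peaks, and 6 dual-antibody peaks in control against 11 in knockdown. Of the 28 knockdown Flag peaks, 17 lay in the gene body and 9 downstream, toward GRK2, whereas control Flag had 6 in the body and 5 downstream. Flag peaks covered 8378 bp in control and 12698 bp in knockdown at KDM2A. Its 6 KD-Unique peaks ran from chr11:67115107-67115457 upstream to chr11:67261210-67261728 downstream, with 4 in the body, the widest at chr11:67257191-67258382 (1192 bp). Of its 4 shared peaks, 3 lay downstream within 10 kb of GRK2. One C-Unique peak, chr11:67118301-67118676, lay 587 bp before the start site and had a knockdown ETO call but no knockdown Flag call. KDM2B, which brings a Polycomb complex to CpG islands, had 5 control and 10 knockdown ETO peaks, 5 control and 9 knockdown Flag peaks, and 3 dual-antibody peaks in control against 6 in knockdown. No other protein-coding gene lay within 10 kb of its shared or KD-Unique peaks. Its KD-Unique peaks were chr12:121467580-121468398, chr12:121541819-121542139 and chr12:121580059-121580474, the last 549 bp inside the gene from the start site. KDM8 had 1 shared peak of 215 bp over its start site, the narrowest shared peak of the 52 genes.

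**Figure D3:**
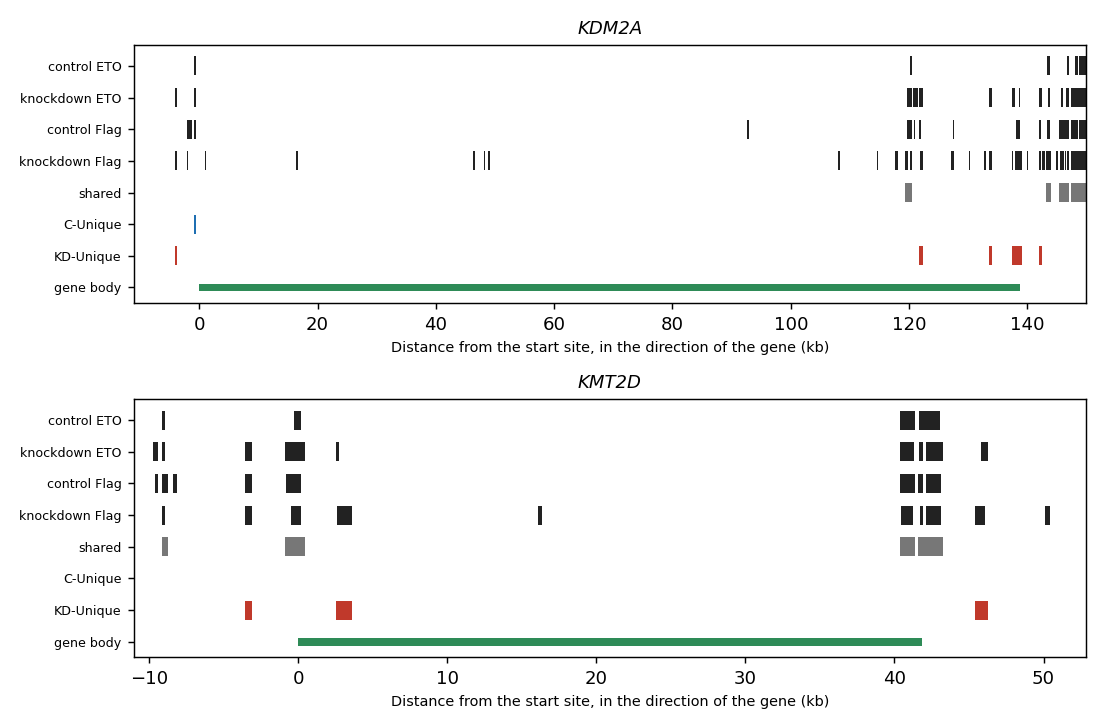
Peaks of each list (rows) along KDM2A (upper panel) and KMT2D (lower panel), by distance in kb from the start site in the direction of the gene; black blocks are single-antibody peaks, grey shared, blue C-Unique and red KD-Unique peaks, and green is the gene body. The KDM2A peaks lie mostly toward the end of the gene and beyond it, whereas KMT2D has a shared peak at its start site and others at its end.

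The H3K9 demethylases had 14 dual-antibody peaks in control and 11 in knockdown, at 6 of 9 genes (control 43.7% and knockdown 39.3% of all genes). With the single-antibody lists shortened to equal length the peaks numbered 11 and 6. KDM3A had 1 shared peak, over its start site, KDM3B had 2 and KDM4A had 2; none of them had a unique peak. The second KDM3B peak, chr5:138438713-138439410, lay downstream over the start site of REEP2. The wider KDM4A peak, chr1:43705474-43708860 (3387 bp), lay at the end of the gene over the start site of ST3GAL3. KDM4B, like KDM4A a demethylase of trimethylated H3K9 and H3K36, had 4 control ETO, 5 knockdown ETO, 8 control Flag and 5 knockdown Flag peaks and 3 shared peaks, the widest of 3282 bp at chr19:4965948-4969229 over its start site. Dual-antibody peaks covered 3722 bp of it in control and 5564 bp in knockdown, with 3 peaks in each. KDM4C had 2 control and 4 knockdown ETO peaks, 2 control and 1 knockdown Flag peak, and 2 dual-antibody peaks in control against 1 in knockdown, covering 1751 and 369 bp. Its C-Unique peak chr9:6758438-6759474 was 1037 bp wide, and knockdown ETO had calls of 546, 290 and 174 bp there but knockdown Flag had none. KDM7A, an eraser of dimethylated H3K9 and H3K27, had 4 dual-antibody peaks in control and 2 in knockdown but 2006 and 2361 bp under them; 3 control ETO calls of 219, 339 and 220 bp stood where knockdown ETO had 1 of 1193 bp. KDM4D, KDM4E and KDM4F had no peak in any list.

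The H3K27 demethylases both had dual-antibody peaks (control 43.7% and knockdown 39.3% of all genes), 8 in control and 7 in knockdown. KDM6B (JMJD3), an inducible demethylase, had 8 control ETO, 7 knockdown ETO, 9 control Flag and 11 knockdown Flag peaks in and around a gene of 20580 bp. Part of these also overlapped the neighbours DNAH2 and LOC124904106. Its shared peak chr17:7833683-7838130 was 4448 bp wide, the widest shared peak of the 52 genes, and covered the start site. In control this stretch held ETO calls of 707, 2591 and 611 bp, and in knockdown 1 ETO call of 4439 bp. Another 4 shared peaks followed, the last, chr17:7856134-7858858, over the start site of NAA38. The C-Unique peak of KDM6B, chr17:7851998-7852185, was 188 bp wide and had a knockdown ETO call of 186 bp but no knockdown Flag call. KDM6A (UTX), an X-linked demethylase and subunit of the KMT2C and KMT2D complexes, had 2 shared peaks, of which 1 covered its start site.

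The PRDM genes encode zinc-finger proteins with a PR domain related to the SET domain, many of them transcription factors without known methylase activity of their own. Leaving PRDM9 with the H3K4 methylases, 9 of 14 had dual-antibody peaks in each condition (control 43.7% and knockdown 39.3% of all genes), 16 in control and 14 in knockdown. With the single-antibody lists shortened to equal length these numbered 11 and 11. PRDM8, a repressor of neural development, had 3 ETO peaks in each condition, 5 control and 2 knockdown Flag peaks, and 3 dual-antibody peaks in control against 1 in knockdown. Its C-Unique peak at the start site, chr4:80184403-80185504 (1102 bp), was made of a control ETO call of 480 bp and a control Flag call of 1089 bp, and no knockdown call of either antibody touched it. It was the 1 C-Unique peak of these genes with no knockdown call. The other, chr4:80202974-80203461, had a knockdown ETO call of 405 bp. PRDM11 had 2 control and 4 knockdown ETO peaks, 4 control and 2 knockdown Flag peaks and 1 dual-antibody peak in each condition, but no shared peak. The KD-Unique peak chr11:45146356-45146726 covered its start site and had a control Flag call of 186 bp but no control ETO call. Its C-Unique peak, chr11:45147286-45148012, was touched by knockdown ETO and knockdown Flag calls that overlapped each other by 85 bp, short of the 100 bp that gave back the deposited lists.

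PRDM10 had 2 control and 4 knockdown ETO peaks, 4 Flag peaks and 2 dual-antibody peaks in each condition. The shared peak chr11:130002269-130004106 (1838 bp) covered its start site, its KD-Unique peak chr11:130001393-130002044 lay 224 bp from that one, and its C-Unique peak chr11:129895352-129896059 lay beyond its end over the start site of NFRKB. PRDM12, needed for pain-sensing neurons, had 2 control and 4 knockdown ETO peaks, 3 Flag peaks in each condition, and 2 dual-antibody peaks in control against 3 in knockdown. The KD-Unique peak chr9:130684044-130684444 lay downstream within 10 kb of EXOSC2. PRDM13, a neural cell fate factor, had 2 ETO peaks in each condition, 2 control and 1 knockdown Flag peak, and 2 dual-antibody peaks in control against 1 in knockdown. Its C-Unique peak chr6:99614579-99614766 was 188 bp wide with a knockdown ETO call and no knockdown Flag call. PRDM1 (Blimp-1), the regulator of plasma cell formation, had 1 peak in every single-antibody list; the control ETO call was 184 bp and the control Flag call 180 bp wide, beginning 74 bp after the start site, and the knockdown ETO call of 622 bp and Flag call of 588 bp covered it. PRDM2 had 2 shared peaks, PRDM4 had 1 and PRDM7 had 2, with no unique peak at any of them. PRDM7 is a near copy of PRDM9, and how reads that fit both were placed is not given in the sources used here. PRDM6, PRDM14, PRDM15 and PRDM16 had no peak in any list.

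Control and knockdown were then compared over all 52 genes. More dual-antibody peaks in knockdown than in control were counted at 9 of the 52 genes, near the 15.9% of all genes, and fewer at 8, near the 14% of all genes. Another 20 had equal numbers above 0, and 16 of these had no unique peak. The 9 with more were KDM1A, KDM2A, KDM2B, KMT2C, KMT2D, PRDM12, SETD1A, SETD2 and SETD3. The 8 with fewer were KDM4C, KDM6B, KDM7A, KMT2B, KMT5B, KMT5C, PRDM13 and PRDM8. A C-Unique peak lay at 12 of the 52 genes (16.9% of all genes), a KD-Unique peak at 13 (18.4%), and both kinds at 5 (4.44%), namely KDM2A, KMT5B, PRDM10, PRDM11 and SETD1B.

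Number and length did not always run together. Of the 37 genes with dual-antibody peaks in both conditions, 28 had more bp under them in knockdown, against 66.9% of all such genes, and 9 had fewer, against 32.8%. All 9 genes with more peaks had more bp. Of the 8 with fewer peaks, KDM6B, KDM7A, KMT2B and KMT5C had more bp in knockdown, and KDM4C, KMT5B, PRDM13 and PRDM8 had fewer. The lowest ratios of knockdown to control length were 0.211 for KDM4C, 0.493 for PRDM8 and 0.51 for PRDM11, and the highest were 9.88 for KDM1A, 3.52 for KDM5B and 3.38 for PRDM1. The highest ratios rest on control lengths of 191, 196 and 184 bp, each under 1 peak. The narrowest control dual-antibody peak at the 52 genes was 179 bp. The median ratio was 1.15 for the 37 genes and 1.15 for the 7226 genes with such peaks in both conditions.

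**Figure D4:**
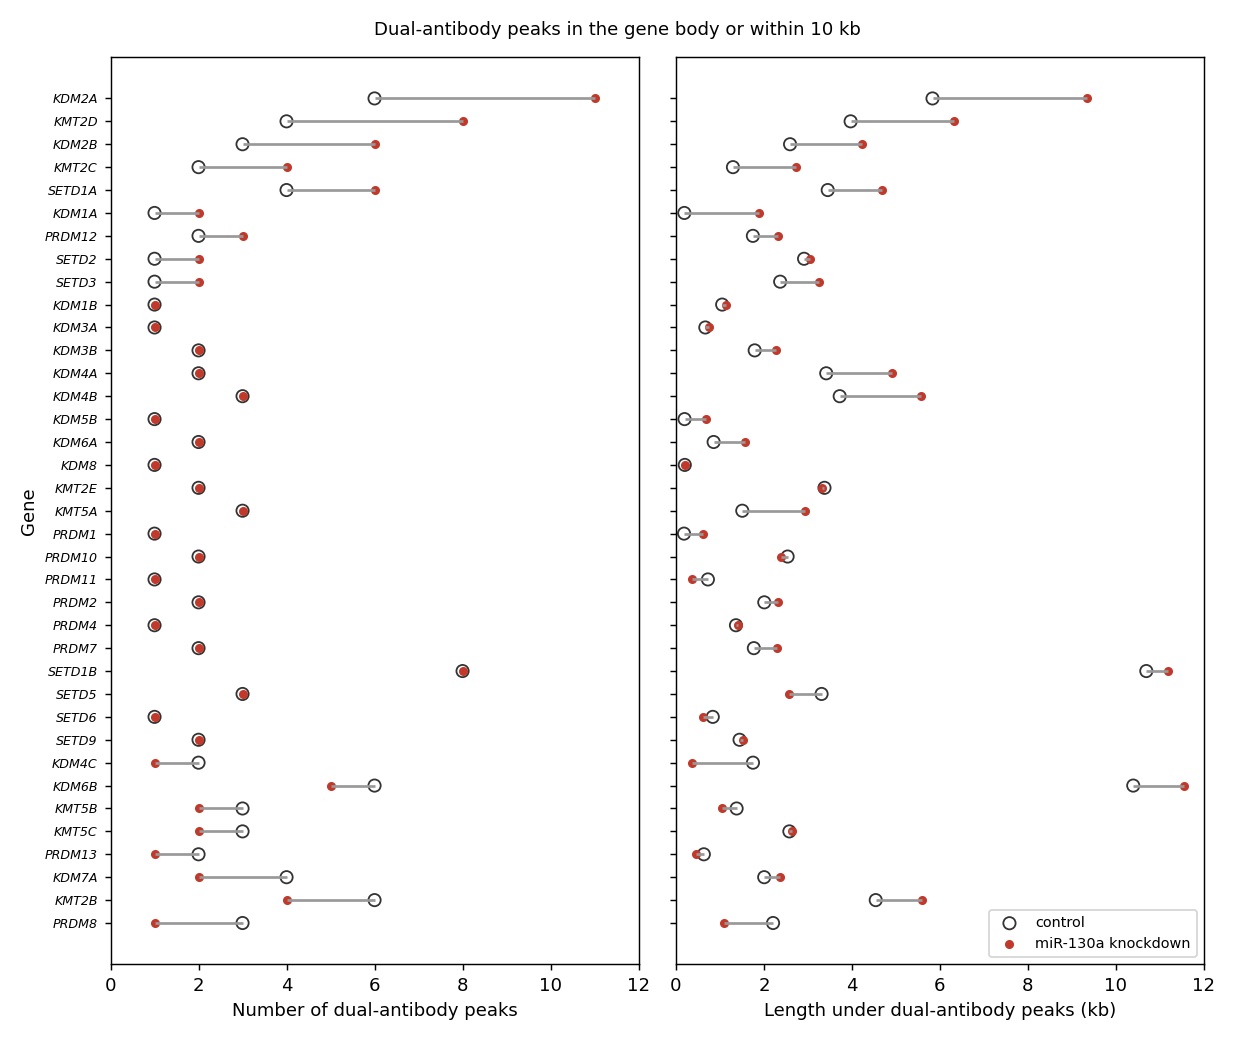
Number of dual-antibody peaks (left) and kb under them (right) in control (open circles) and miR-130a knockdown (red points) for the 37 genes with such peaks, sorted by the difference in number; a line joins the 2 values of a gene. Knockdown lies to the right of control in number for 9 genes and in length for 28. The length is that of the joined ETO and Flag calls.

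The single-antibody lists behind these numbers differed in length between conditions, and the members' sums followed the lists. ETO peaks at the 52 genes numbered 108 in control and 155 in knockdown, a ratio of 1.44, against 1.58 for the whole list, with more at 25 genes and fewer at 4. Flag peaks numbered 161 and 177, a ratio of 1.1 against 1.12, with more at 12 genes and fewer at 12. Dual-antibody peaks numbered 94 and 103, again a ratio of 1.1 against 1.12. Of the 14 C-Unique peaks at these genes, 10 had a knockdown ETO call and no knockdown Flag call (71.4%, against 74.7% of the whole list). Of the 24 KD-Unique peaks, 15 had a control Flag call and no control ETO call (62.5%, against 55.1%), and 8 had no control call of either antibody (33.3%, against 38.1%). The part of list length in the unique peaks was not tested. With all 4 lists shortened to 14264 peaks by width and the dual-antibody peaks rebuilt, 11 of the genes had more in knockdown, against 8.36% of all genes, and 10 had fewer, against 16.3%. The share of the 52 genes with more, close to that of all genes in the deposited lists, was thus above it in the shortened ones. In these KDM4C, KMT5C and PRDM8 had dual-antibody peaks in control only (9.21% of all genes), and KDM1A and PRDM1 in knockdown only (2.3%).

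Some unique peaks stood beside shared ones. Of the C-Unique peaks at these genes, 5 of 14 lay within 1 kb of a shared peak (35.7%, against 13.7% of the whole list). Of the KD-Unique peaks 6 of 24 did, near the share of their whole list (25%, against 24.8%). The whole lists cover the genome, and the shares within the windows of all genes were not computed. Shared peaks at the 52 genes had a median width of 1140 bp, from 215 to 4448 bp, against 1050 bp for the whole shared list. The C-Unique peaks had a median of 580.0 bp and the KD-Unique peaks one of 548 bp, against 470.0 and 517 bp for their lists.

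Start sites could be placed for 46 of the 52 genes and for 15843 genes in all. A shared peak covered the start site of 23 of the 46, which is 50%, against 18.1% of all genes. A control dual-antibody peak covered 19 (19.6% of all genes) and a knockdown one 23 (18.1%). A start site inside a shared peak was not always covered in both conditions. Those of KDM1A, KDM4B, KDM6A, KDM7A, KDM8 and PRDM1 lay in a dual-antibody peak in knockdown only. That of SETD5 lay in one in control only. Among genes with a shared peak somewhere in the window, 23 of 35 had it over the start site, against 50.3% of all such genes. C-Unique peaks covered 2 start sites (3.11% of all genes), those of KMT5B and PRDM8, and a KD-Unique peak covered 1 (1.47%), that of PRDM11. By antibody, control ETO peaks covered 17 of the 46 start sites (19.5% of all genes), knockdown ETO 26 (23.6%), control Flag 14 (16.8%) and knockdown Flag 11 (10.1%). Peaks within 1 kb of the start site made up 36 of 69 shared peaks (52.2%, against 42.6% over all genes), 7 of 13 C-Unique peaks (53.8%, against 44.4%) and 5 of 23 KD-Unique peaks (21.7%, against 19.7%). The lower share of the KD-Unique list was thus present over all genes as well.

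**Figure D5:**
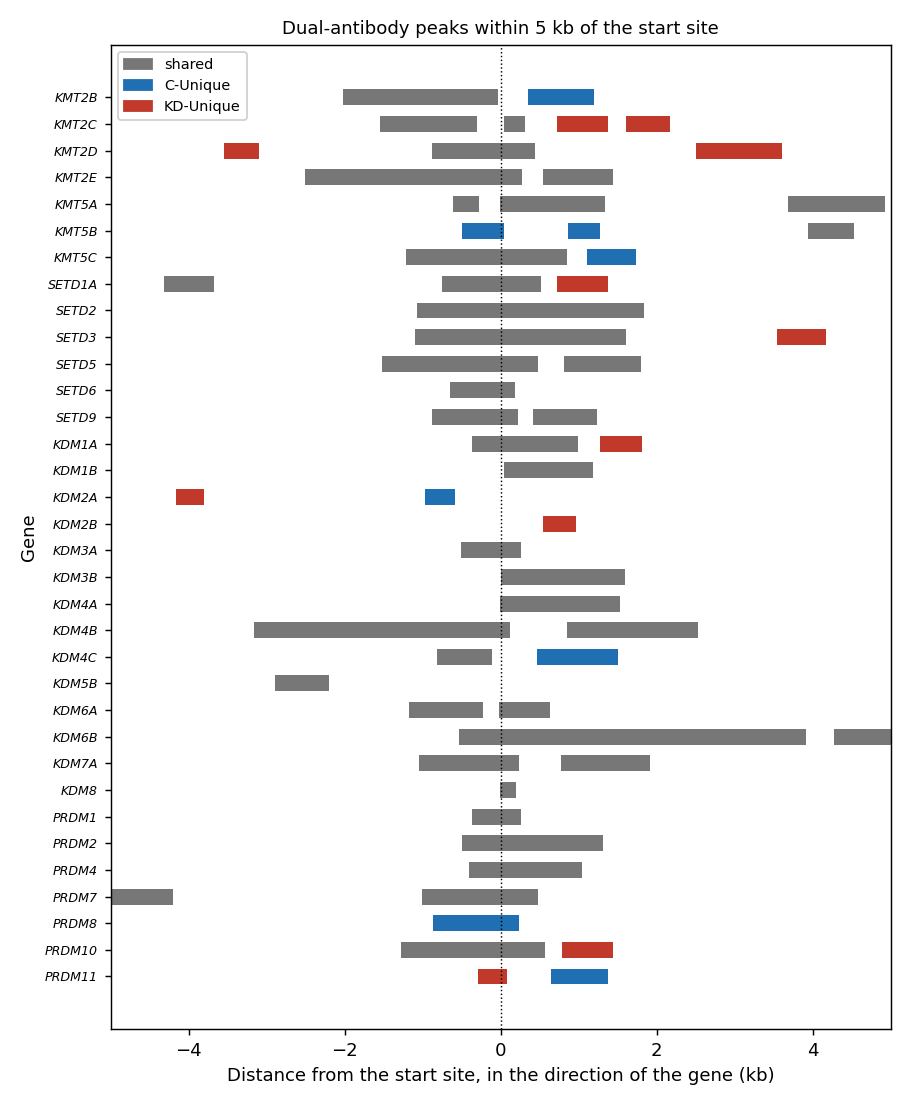
Shared (grey), C-Unique (blue) and KD-Unique (red) peaks within 5 kb of the start site, by distance in kb in the direction of the gene (0 is the start site, dotted), for the 34 genes with such a peak and a known start site. Most grey bars touch the dotted line, and the blue or red bars cross it at KMT5B, PRDM8 and PRDM11.

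Promoter sequences were compared with the peaks. The promoter window, 250 bases before to 50 after the start site, was overlapped by a shared peak in 28 of the 46 genes (60.9%, against 22.6% of all promoters), by a C-Unique peak in 2 (4.35%, against 6.13%) and by a KD-Unique peak in 1 (2.17%, against 2.92%). Its median GC content was 66.2% in the 46 genes and 62.7% in all. The RUNX core was searched as TGTGGT or TGCGGT on both strands and was found in 11 of the 46 windows (23.9%, against 18.6% of all). Among windows overlapped at least in part by a shared peak it was found in 8 of 28 (28.6%, against 23.4% of all such windows), those of KDM1A, KDM3B, KDM4B, KDM4C, KDM6B, KMT2B, PRDM2 and SETD5, and in 3 of the other 18 (16.7%, against 17.2%), those of KDM5C, KDM5D and PRDM9. The core itself lay inside the shared peak in 7 of the 28 (25%, against 19.4% of all such windows), and at KDM3B it lay outside. The 250 bases before the start site are printed from RefSeq on GRCh38.p14, in the direction of the gene, for the 3 genes whose start site lay in a C-Unique or KD-Unique peak and for 3 genes with a shared peak over the promoter and a RUNX core, with RUNX cores in capitals. The first set is KMT5B (chr11:68213649-68213898, minus strand), PRDM8 (chr4:80185020-80185269, plus strand) and PRDM11 (chr11:45146389-45146638, plus strand), in which no RUNX core occurs.
KMT5B: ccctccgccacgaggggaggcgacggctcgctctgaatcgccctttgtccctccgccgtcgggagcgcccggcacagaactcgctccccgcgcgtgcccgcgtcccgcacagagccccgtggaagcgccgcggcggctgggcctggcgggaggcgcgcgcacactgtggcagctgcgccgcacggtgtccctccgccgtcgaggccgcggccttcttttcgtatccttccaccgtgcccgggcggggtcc
PRDM8: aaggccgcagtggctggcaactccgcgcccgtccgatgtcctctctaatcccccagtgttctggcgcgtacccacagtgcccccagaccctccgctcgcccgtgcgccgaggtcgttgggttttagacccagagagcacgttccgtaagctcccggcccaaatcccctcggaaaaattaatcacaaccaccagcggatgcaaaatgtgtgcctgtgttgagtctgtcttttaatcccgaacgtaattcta
PRDM11: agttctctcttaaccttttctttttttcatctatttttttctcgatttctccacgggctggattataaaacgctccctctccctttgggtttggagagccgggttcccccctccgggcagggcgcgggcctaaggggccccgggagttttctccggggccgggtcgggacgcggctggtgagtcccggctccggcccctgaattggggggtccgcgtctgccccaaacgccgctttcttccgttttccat
The second set, on the plus strand, is KDM6B (chr17:7833967-7834216) and KDM4C (chr9:6757723-6757972), each with TGTGGT on the reverse strand, and SETD5 (chr3:9397365-9397614), with TGCGGT on both strands.
KDM6B: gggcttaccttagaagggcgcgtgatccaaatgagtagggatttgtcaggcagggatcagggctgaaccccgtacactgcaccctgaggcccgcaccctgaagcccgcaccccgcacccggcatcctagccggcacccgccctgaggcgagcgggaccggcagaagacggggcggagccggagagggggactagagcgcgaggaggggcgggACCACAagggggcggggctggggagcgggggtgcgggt
KDM4C: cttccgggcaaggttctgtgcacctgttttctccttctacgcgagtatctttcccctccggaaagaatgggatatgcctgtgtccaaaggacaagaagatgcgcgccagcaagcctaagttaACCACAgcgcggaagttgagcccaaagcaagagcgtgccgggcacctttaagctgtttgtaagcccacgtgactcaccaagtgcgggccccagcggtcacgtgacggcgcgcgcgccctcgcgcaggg
SETD5: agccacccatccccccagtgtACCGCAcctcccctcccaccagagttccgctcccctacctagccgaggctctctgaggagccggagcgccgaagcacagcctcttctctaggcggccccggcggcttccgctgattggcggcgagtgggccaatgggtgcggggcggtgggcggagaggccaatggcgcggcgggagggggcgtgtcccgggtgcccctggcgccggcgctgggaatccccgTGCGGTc
A match is a run of letters and no measured binding site, and the peaks over these promoters were wider than the printed window. The E-box letters CAGCTG or CAGGTG on both strands were found in 15 of the 46 windows (32.6%, against 33.6% of all) and the ETS core CCGGAA in 13 (28.3%, against 22.9%). Genes with no start site entry used here include KDM4E, PRDM6, PRDM14, PRDM16 and SETD1B.

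Other genes of the pathway were counted in the same way. Of 27 further lysine methylase and demethylase genes, 19 had dual-antibody peaks in control and 14 in knockdown, where all genes gave 43.7% and 39.3%, and 13 had a shared peak (35% of all genes). In knockdown 8 of the 27 had more (15.9% of all genes) and 6 had fewer (14%). The H3K79 methylase DOT1L had 6 in control and 8 in knockdown, and the H3K36 methylases NSD2 and ASH1L had 5 and 8, and 1 and 3. PHF2, PHF8, RIOX1, RIOX2 and SMYD2 had 1 each in control and 0 in knockdown. Such peaks in control but not in knockdown were found at 7.64% of all genes. EZH2, the H3K27 methylase of Polycomb repressive complex 2, had 1 ETO peak in each condition and no Flag peak. Of 22 partner genes of these enzymes, 20 had dual-antibody peaks in control (43.7% of all genes), 18 in knockdown (39.3%) and 17 a shared peak (35%). More in knockdown were counted at 4 of the 22 (15.9% of all genes) and fewer at 5 (14%). BCOR, a Polycomb partner of KDM2B, had 18 in control and 17 in knockdown, RCOR1 and HDAC1, partners of KDM1A, had 3 and 1 each, and PHF21A of the same complex had 2 and 0.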

How the data were processed

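The deposited files are 9 interval lists with chromosome, start and end (unit: positions, with no score), for 18 CUT&RUN libraries in 6 groups of 3. Per the submitters' processing notes the tools were fastp 0.19.5, Bowtie2 2.3.5, MACS2 2.2.5 and HOMER 4.8 and the builds hg38 and sacCer3, with no role or order given. The threshold, the use of IgG and the handling of replicates are not given in the sources used here, and the authors' lists name no replicate. Depth is unknown. By construction, an interval that no call of 1 of the 4 single-antibody lists touches cannot be shared. A position inside a shared interval can still lie outside the calls of some of these lists.

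Starts were written counted from 1. Gene bodies, start sites and promoter sequences came from RefSeq tables of GRCh38.p14. Peaks were counted within 10 kb in Python 3.11.15 with numpy 2.4.6 and pandas 2.3.3, and drawn with matplotlib 3.10.9. bedtools 2.31.1 gave the same counts for 20037 of 20037 genes in all 9 lists, and the functions were tested on simulated intervals. Counts were read against all genes. No test was run, since no list holds a value per library.

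The members, roles and other gene lists were chosen with earlier results of these data known. Described in full by rule were genes with a C-Unique or KD-Unique peak or a dual-antibody peak in 1 condition only, and the 8 genes with the most shared peaks; other genes are given by counts, and the values of 1 gene are not reported here. Promoters were printed for at most 10 genes described in full with a derived peak over the promoter, and the 6 printed were chosen after their values were seen. Alternatives were other windows, overlaps, shorter lists and nearest-gene assignment; those for start sites, for more or fewer peaks or bp, and with rebuilt dual-antibody peaks were chosen after seeing the data.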

Additional observations from a re-analysis of the deposited data

How the results depend on the processing

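Under other settings 107 values stayed within 1.5 times the reported count and 12 moved beyond it. The count of genes with a dual-antibody peak in control but not in knockdown, 0 as reported, was 1 with the gene body only (6.5% of all genes), 2 with a window of 50 kb (7.96%), 3 with only peaks at or above the median width of their list (the wider peaks, 4.11%), 2 with peaks assigned to the nearest gene (7.25%) and 3 with all single-antibody lists shortened to 14264 peaks and dual-antibody peaks rebuilt (9.21%). The reverse count, 0 as reported, was 1 with 50 kb (2.15%), 3 with the wider peaks (3.77%) and 2 with rebuilt peaks (2.3%). With 50 kb, C-Unique peaks were counted at 19 genes in place of 12 (30.1% of all genes), and 8 in place of 13 genes had no single-antibody peak (30.5%). More bp under dual-antibody peaks in knockdown was counted at 18 of 26 genes with the wider peaks (68.3% of all such genes) and at 18 of 28 with rebuilt peaks (60.3%), in place of 28 of 37; fewer genes had peaks in both conditions under these settings. The causes of the other moves were not tested. The start-site count was 18 of 46 with the wider peaks (12.7% of all genes) and 28 with the 300-base promoter window (22.6%). Within 1 kb it was 28 (25.1%), in place of 23 (18.1%). The settings for start sites, for more or fewer peaks or bp and with rebuilt peaks were chosen after seeing the data. No paired analysis was possible because the lists hold no value per replicate, and no replicate could be left out for the same reason.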

Other observations

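The 52 genes' windows held 204 of the 35622 regions made by joining overlapping single-antibody peaks. The shares of all regions given here cover the whole genome, and those within the windows of all genes were not computed. Regions called in all 4 lists made up 77 of the 204 (37.7%, against 24.8% of all regions). Regions with a knockdown Flag call alone made up 33 (16.2%, against 22.3%), a knockdown ETO call alone 22 (10.8%, against 10.3%), a control Flag call alone 15 (7.35%, against 10.2%) and a control ETO call alone 2 (0.98%, against 1.4%). Of the 75 shared peaks counted for these genes, 41 lay within 10 kb of another protein-coding gene and 25 overlapped the body of one, as did 4 and 1 of the 14 C-Unique and 12 and 2 of the 24 KD-Unique peaks. The matching shares over all genes were not computed, so these counts describe the windows and are not read as a trait of these genes. By gene length the KD-Unique peaks ran in both directions against all genes. Under 20 kb, 1 of 10 of these genes had one (10%, against 21.6% of all genes), from 20 to 60 kb 4 of 16 (25%, against 19.1%), from 60 to 120 kb 3 of 15 (20%, against 14.9%), and over 120 kb 5 of 11 (45.5%, against 9.45%). The last 5 were KDM2A, KDM2B, KMT2C, PRDM11 and SETD2.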
